A study of Mus musculus with 14 samples.

Results

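The circadian clock genes described here are the 10 genes Arntl, Clock, Npas2, Per1, Per2, Per3, Cry1, Nr1d1, Nr1d2 and Dbp. They were chosen by symbol, and all 10 were found among the 23282 genes of the deposited count table. RNA of epididymal white adipose tissue (eWAT), the abdominal fat pad next to the epididymis, was measured in 14 libraries by QuantSeq 3′-mRNA sequencing, which reads the 3′ end of each transcript. All mice were wild type male C57BL/6J, bought at 4 weeks of age and fed a standard diet (control) or a Western diet rich in fat and cholesterol (WD) for 20 weeks. The libraries comprised 4 controls of batch 1, 5 WD mice of batch 1 and 5 controls of batch 2. The labels do not say what a batch was, and they do not say whether RNA of several mice was pooled, so p values cover only the spread between these libraries. Since every WD library belonged to batch 1, diet and batch could be told apart only through the 4 batch 1 controls. The mice lived under a light and dark cycle with a fixed time of lights on. The time of day at which fat was collected is not given in the sources used here, so a shift in that time cannot be told apart from diet or from batch.

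The clock of a mammalian cell is a loop of transcription. CLOCK, or its relative NPAS2, pairs with BMAL1, the product of Arntl, and the pair switches on Per and Cry genes, whose proteins then block it. The nuclear receptors REV-ERBα (Nr1d1) and REV-ERBβ (Nr1d2) repress Arntl, and DBP, with its relatives TEF and HLF, carries the rhythm to output genes. In fat as in liver, Dbp, the Per genes and Nr1d1 swing widely over the day while Clock swings little, so levels of these genes depend on the hour of sampling.

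The sequences that tie these genes together lie in front of their start sites. CLOCK and BMAL1 bind the E-box CACGTG, and DBP, TEF and HLF bind the D-box TTATGTAA. Promoter sequences of RefSeq (GRCm38.p6) were found for 9 of the 10 genes, all but Per2. In the 250 bases before the start, read on both strands, the E-box was found in Cry1 and in 1 of 2 entries of Per1, against 6.02% of all 32851 windows. The D-box was found in Per3 alone among the 9 genes, against 0.819% of all windows. The E-box form CACGTT, held by 3.85% of windows, was found in Cry1 and Nr1d1, and AGGTCA, the core bound by REV-ERB and ROR receptors and held by 4607 of the windows, in Nr1d2 and in entries of Per1 and Clock. None of these motifs overlaps another by its letters. The stretches below stop before the start of the entry used, and capitals mark the E-box or the D-box. For Per1 this is a downstream start, since the gene begins at chr11:69095217 in the GENCODE annotation and the stretch lies inside it. They are shown because Per3 carries 2 copies of the site bound by DBP in 250 bases, while the 91 bases shown for Dbp hold neither motif. The Dbp stretch is the shorter and ends next to the GENCODE start of Dbp, chr7:45705088. The deposited annotation places that start at chr7:45705247. A shorter stretch has fewer places for a match.
Per3, chr4:151044666-151044915, minus strand: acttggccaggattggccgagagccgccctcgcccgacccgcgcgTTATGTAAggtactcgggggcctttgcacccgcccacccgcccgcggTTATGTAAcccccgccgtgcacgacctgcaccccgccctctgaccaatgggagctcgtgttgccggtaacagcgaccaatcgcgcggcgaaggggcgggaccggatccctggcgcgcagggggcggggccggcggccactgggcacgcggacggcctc
Cry1, chr10:85185065-85185304, minus strand: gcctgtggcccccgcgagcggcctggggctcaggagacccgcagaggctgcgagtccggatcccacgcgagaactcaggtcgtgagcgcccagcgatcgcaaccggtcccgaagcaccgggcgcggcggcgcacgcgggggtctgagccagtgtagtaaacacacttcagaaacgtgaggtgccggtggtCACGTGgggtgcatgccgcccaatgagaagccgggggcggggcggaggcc
Per1, chr11:69098699-69098947, plus strand: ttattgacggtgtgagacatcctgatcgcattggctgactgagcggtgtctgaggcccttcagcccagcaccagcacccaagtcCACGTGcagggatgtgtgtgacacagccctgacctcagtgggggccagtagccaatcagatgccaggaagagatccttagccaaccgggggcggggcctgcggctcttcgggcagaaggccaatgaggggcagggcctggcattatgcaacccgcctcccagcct
Dbp, chr7:45704997-45705087, plus strand: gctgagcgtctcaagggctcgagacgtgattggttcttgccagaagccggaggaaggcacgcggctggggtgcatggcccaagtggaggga
A match of letters is a description of the window and not a measured binding site.

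The libraries were alike in depth and differed in makeup. Total counts ran from 10278970 to 13712254 per library, so that 3 counts, taken as the smallest level that can be shown, corresponded to 0.213 to 0.320 CPM (counts scaled to a common library size with TMM factors). All 6 adipocyte markers had counts in every library. Library 4 of the batch 1 controls held counts for 7999 genes, against 10903 to 13780 in the others, and 38.4% of the genes tested were at 0 there. Library 1 of the batch 1 controls held counts of all 10 epididymis markers, with a summed level of 187906 CPM against 0 to 51.8 CPM in the other libraries, and the lowest adipocyte marker sum, 4429 CPM against 20708 to 45856 CPM. Both libraries stand among the 4 controls that share a batch with the WD mice, and results that rest on them are given with and without them. In bulk tissue, fewer cells of a type and less RNA per cell cannot be told apart.

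Among the activators, Clock was well measured and Arntl and Npas2 had few or no counts. Clock had 447, 750, 646 and 488 counts in the batch 1 controls, 439, 301, 641, 763 and 527 in the WD libraries, and 372, 632, 891, 549 and 224 in the batch 2 controls. The groups overlapped fully. Arntl, the gene of BMAL1, had 4, 0, 15 and 0 counts in the batch 1 controls, 21, 0, 0, 0 and 11 in the WD libraries, and 15, 0, 0, 0 and 0 in the batch 2 controls. Arntl was at 0 in 9 of 14 libraries. By depth alone this allows a level of up to 0.220 to 0.320 CPM in those libraries. A count of 0 also occurred for better measured genes. Cry1 was at 0 in WD library 5, against 122 to 181 counts in the other WD libraries. The true level of Arntl may therefore lie higher, and no statement on its direction is possible. Npas2 had 55 counts in library 1 of the batch 1 controls, the library with epididymis RNA, and 26 and 15 counts in WD libraries 1 and 2. It was at 0 in the other 11 libraries, all 5 batch 2 controls included. Neither Arntl nor Npas2 passed the filter on low counts, so 8 of the 10 genes were tested across all genes.

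The Per genes, inhibitors of CLOCK and BMAL1, varied widely within the batch 1 controls. Per2 had 10, 364, 471 and 461 counts in the batch 1 controls, 497, 62, 227, 192 and 209 in the WD libraries, and 541, 429, 394, 490 and 383 in the batch 2 controls. WD libraries 2 to 5 lay below every batch 2 control and WD library 1 lay among them, while library 1 of the batch 1 controls was the lowest of all. Per1, which also answers to glucocorticoids and stress, had 42, 151, 230 and 0 counts in the batch 1 controls. It had 69, 56, 209, 3 and 58 counts in the WD libraries and 253, 91, 55, 367 and 171 in the batch 2 controls. These ranges overlapped. Per3, whose promoter carries the D-boxes shown above, had 359, 328, 177 and 0 counts in the batch 1 controls. It had 125, 226, 108, 74 and 239 counts in the WD libraries and 284, 579, 266, 103 and 208 in the batch 2 controls, again with overlap.

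Cry1, the partner of the PER proteins, was low in 3 of the 4 batch 1 controls. Its counts were 2, 134, 12 and 0 there, 140, 122, 181, 125 and 0 in the WD libraries, and 225, 99, 176, 140 and 114 in the batch 2 controls. The groups overlapped in each comparison. Nr1d1 had 67, 532, 131 and 346 counts in the batch 1 controls, 485, 303, 261, 188 and 336 in the WD libraries, and 397, 248, 227, 245 and 137 in the batch 2 controls. Nr1d2 was the most abundant of the 10 genes, with 801, 672, 713 and 855 counts in the batch 1 controls, 897, 493, 1043, 243 and 999 in the WD libraries, and 1250, 1218, 643, 761 and 1084 in the batch 2 controls. Neither REV-ERB gene separated the groups.

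Dbp, the transcription factor that carries clock time to output genes, was the only member whose batch 2 libraries stood apart from all others. It had 138, 116, 384 and 0 counts in the batch 1 controls, 180, 133, 294, 297 and 231 in the WD libraries, and 974, 519, 699, 817 and 597 in the batch 2 controls. In CPM the levels were 14.1 ± 13.4 (SD, n = 4) in the batch 1 controls, 18.3 ± 4.76 (SD, n = 5) in the WD mice and 59.2 ± 7.77 (SD, n = 5) in the batch 2 controls. The lowest batch 2 control, at 50.2 CPM, lay above the highest batch 1 library, at 32.0 CPM, whichever diet the batch 1 mice had been fed.

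**Figure D1:**
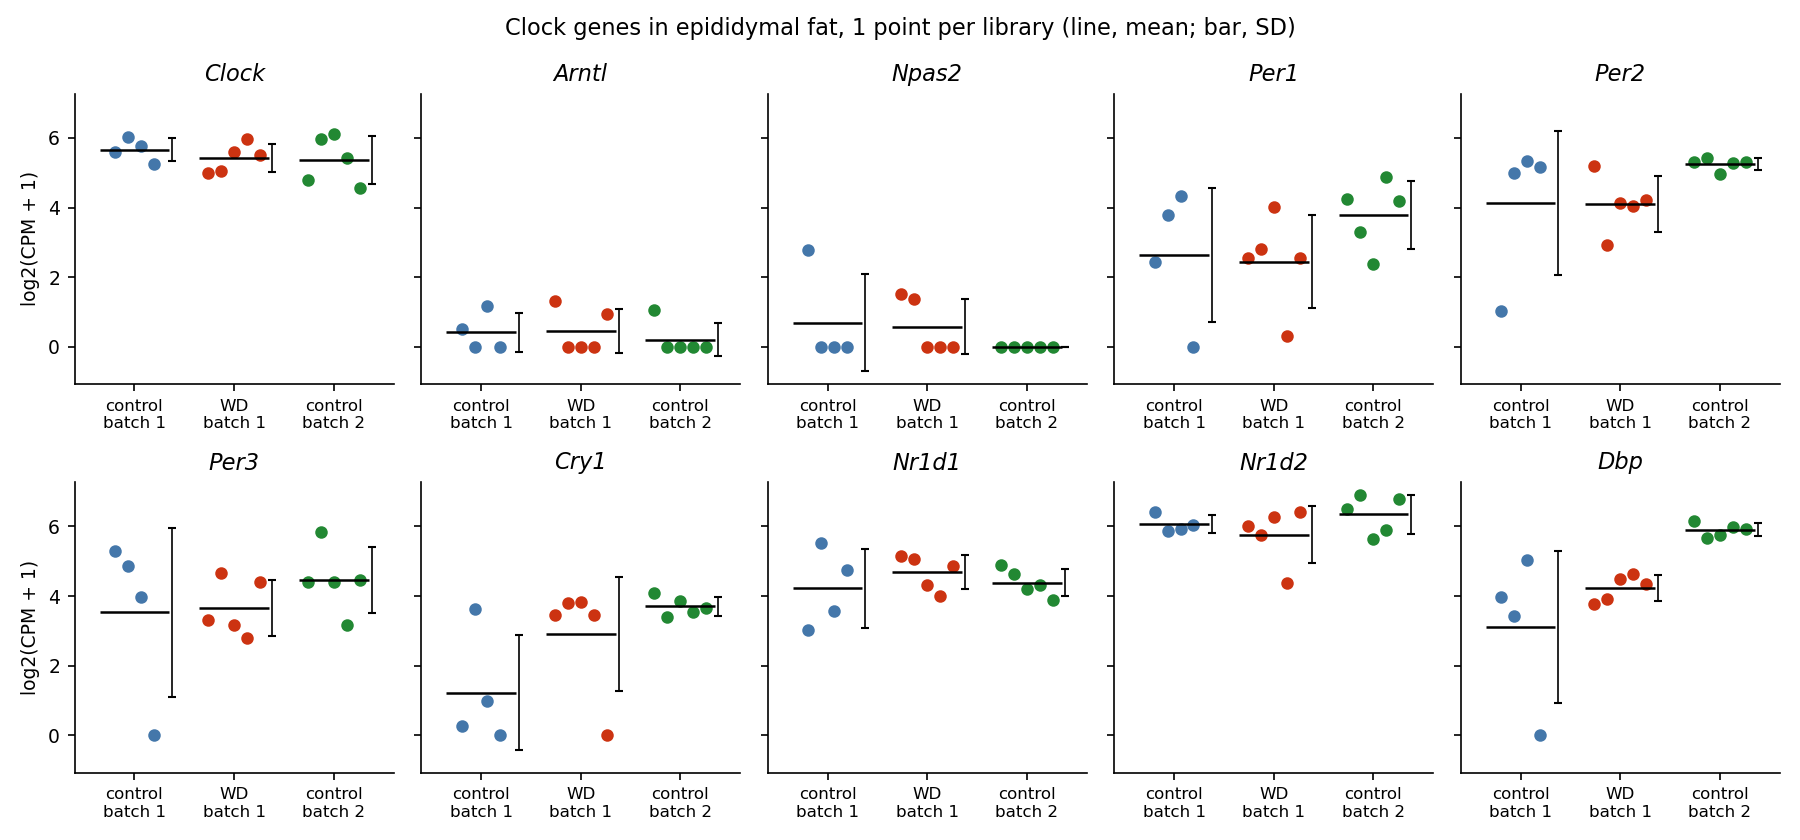
Level of each of the 10 clock genes as log2(CPM + 1) on the vertical axis, by group, with 1 point per library, the mean as a line and the SD as a bar. The batch 2 controls of Dbp lie above all 9 batch 1 libraries, library 4 of the batch 1 controls is at 0 for Per1, Per3, Cry1 and Dbp, and Arntl and Npas2 are at 0 in most libraries.

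A count at the 3′ end does not grow with transcript length, so the levels of different genes can be set side by side. By the median over 14 libraries the order was Nr1d2 (64.1 CPM), Clock (45.5), Per2 (32.8), Dbp (22.7), Nr1d1 (21.6), Per3 (20.1), Cry1 (10.4) and Per1 (7.38), with Arntl and Npas2 at 0. The order differed between groups: in batch 2 Dbp, at a median of 60.2, stood above Clock (42.1) and Per2 (38.6), while in WD mice Nr1d1 (28.1) stood above Dbp (19.3) and Per2 (16.6). The place of Dbp rests on a count that may hold reads of its neighbour Sphk2, described further on. The ranges of neighbours in the order over 14 libraries overlapped over the libraries, for Per1 and Arntl only through 2 batch 1 libraries with 0 and 3 counts of Per1. The spread itself was uneven. The median SD of log2(CPM + 1) over the 8 genes was 1.79 in the batch 1 controls, 0.81 in the WD libraries and 0.47 in the batch 2 controls, beside 1.21, 0.69 and 0.50 over the 12653 genes tested.

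The question of diet is answered within batch 1, where 5 WD libraries were compared with 4 controls. No clock gene passed the test. Of 12157 genes tested with edgeR's quasi-likelihood test, 0 (0%) had a false discovery rate (FDR) under 0.05 and 628 (5.17%) an unadjusted p under 0.05, and the 8 clock genes numbered 0 by either rule. Their median log2 fold change was −0.19, beside 0.03 over all genes tested, with 3 genes above 0 and 5 below. Per2 had a log2 fold change of −0.52 (SE 0.82), Per3 of −0.60 (SE 1.15) and Per1 of −0.53 (SE 1.46). Cry1, at 1.57 (SE 1.79), had the widest error and ran from 1.13 without library 4 of the batch 1 controls to 4.46 without library 2, and Dbp stood at 0.37 (SE 1.11, FDR 1.00 with edgeR). Clock and Nr1d2 had the narrowest errors, with −0.22 (SE 0.36) and −0.16 (SE 0.41). An SE above 1 on the log2 scale leaves changes of 2-fold in either direction undetectable for Per1, Per3, Cry1 and Dbp. For Per2 (SE 0.82) and Nr1d1 (SE 0.63) a 2-fold change also lies within 2 SE.

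Both batch 1 controls with unusual makeup bear on that comparison. Without libraries 1 and 4 of the batch 1 controls, 108 genes had an FDR under 0.05 and none of them was a clock gene, and Dbp moved from 0.37 to −0.19 on the log2 scale. Without library 4 alone the count was 48. DESeq2 called 114 genes on all 9 libraries, again with no clock gene among them. In the exact permutation test on log2(CPM + 1), run on each of the 10 genes and not adjusted, no p lay under 0.05, and the smallest p that 4 libraries against 5 allow is 0.0159.

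The question of batch is answered within the control diet, through the 5 libraries of batch 2 and the 4 of batch 1. Here Dbp was higher in batch 2 in each of 5 libraries, by 2.04 on the log2 scale (SE 0.99), a 4.11-fold difference that did not pass the edgeR test (FDR 0.699). With 1 library left out this value ran from 1.65, without library 4 of the batch 1 controls, to 2.86, without library 3. Its groups did not overlap, as was true in this direction of 4.21% of the 12106 genes tested, and the exact permutation test gave the smallest p it allows, 0.0159, unadjusted. Over all genes, 0 had an FDR under 0.05 and 895 (7.39%) an unadjusted p under 0.05 with edgeR, and no clock gene was in either set. DESeq2 called 111 genes here. The other 7 genes ranged from −0.21 (Clock, SE 0.39) to 1.96 (Cry1, SE 1.39), and Cry1 stood at 4.89 without library 2 of the batch 1 controls, which held most of its counts there, and at 1.54 without library 4. For Cry1 the exact permutation test gave p = 0.0476, unadjusted, and this was lost when any library but replicate 2 of the batch 1 controls was left out. Without libraries 1 and 4 of the batch 1 controls, Dbp differed by 1.66 in mean log2(CPM + 1), against 2.79 with all 9 libraries, with 5 of 5 batch 2 libraries above both remaining controls. The exact p was then 0.0952, and 2 libraries against 5 cannot reach 0.05.

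WD mice and batch 2 controls differ in both diet and batch, and these cannot be told apart in that comparison. This comparison leaves out the batch 1 controls, and its median SE over the 8 clock genes, 0.35, was the smallest of all comparisons. With more libraries, WD against all controls had a median SE of 0.67. Dbp was lower in WD by 1.69 on the log2 scale (SE 0.26), a 3.22-fold difference with an FDR of 0.000658 by edgeR, and all 5 WD libraries lay below all 5 controls, as was true in this direction of 4.01% of genes. It was the only 1 of 8 clock genes with an FDR under 0.05. Over all 12070 genes tested 773 (6.4%) passed, 299 of them (2.48%) lower in WD. Per2 followed with −1.02 (SE 0.36, FDR 0.121 with edgeR), and the other genes ranged from −1.29 (Per1, SE 0.74) to 0.34 (Nr1d1, SE 0.33). The median of the 8 genes was −0.71, beside −0.003 over all genes, with 7 below 0. Without WD library 1, which held the highest Per2 level among the WD mice, Per2 reached −1.40 (SE 0.35, FDR 0.0288 with edgeR). When all 14 libraries shared 1 estimate of the spread, Dbp had the same fold change with an SE of 0.76 and an FDR of 0.483, and 140 genes passed.

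**Figure D2:**
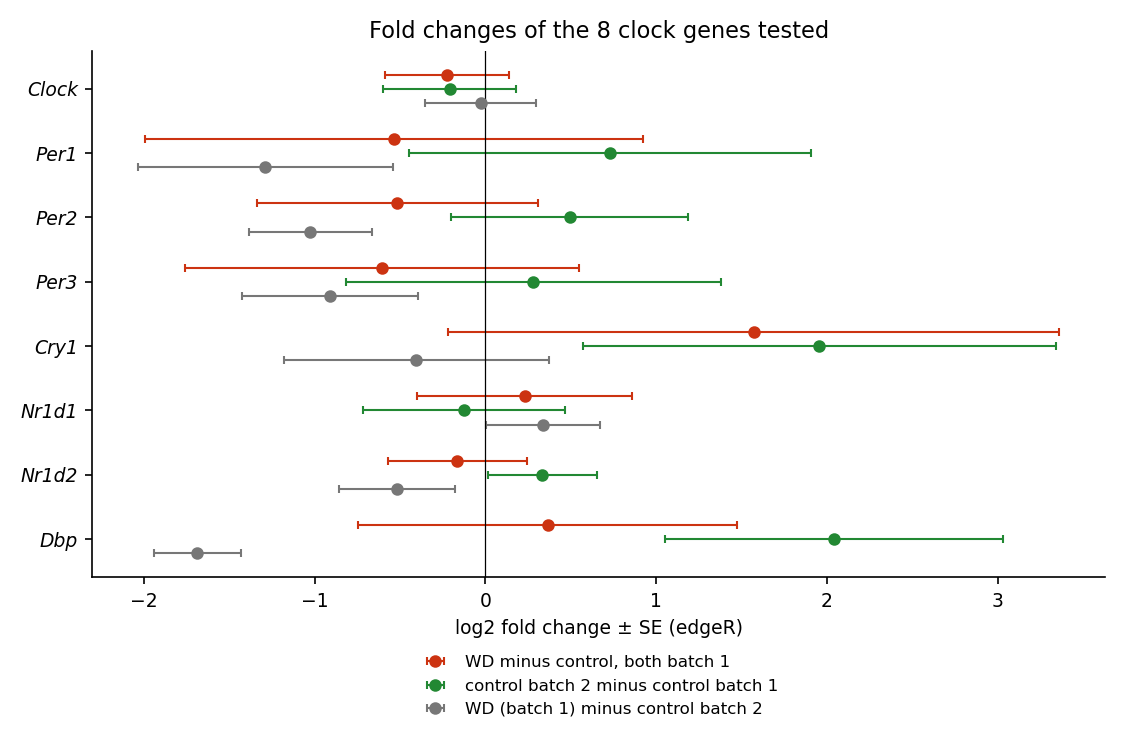
Log2 fold change (horizontal axis) with its SE by edgeR for the 8 clock genes that passed the filter on low counts, in 3 comparisons. For Dbp the diet within batch 1 gives 0.37, the batch within the control diet 2.04 and the comparison that mixes both −1.69, and the errors are wider wherever the 4 batch 1 controls enter, except for Nr1d2 in the batch comparison.

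The comparisons above share libraries, so the values for Dbp are given side by side rather than as separate support. WD minus batch 1 control was 0.37 (SE 1.11), batch 2 control minus batch 1 control was 2.04 (SE 0.99), and WD minus batch 2 control was −1.69 (SE 0.26). When WD mice were set against all 9 controls with no batch term, Dbp stood at −1.09 (SE 0.78, FDR 0.924 with edgeR) and 0 of 8 clock genes passed, beside 67 of 12653 genes (0.53%). This last result rested on the same libraries. Without libraries 1 and 4 of the batch 1 controls, Dbp was at −1.39 (SE 0.38, FDR 0.0363 with edgeR), and 619 genes passed. Without library 1 alone 190 genes passed, and without library 4 alone 289.

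A comparison added after the values were seen set the 5 batch 2 controls against all 9 batch 1 libraries of both diets. Dbp was higher in batch 2 by 1.84 (SE 0.63, FDR 0.260 with edgeR), and its groups did not overlap, as was true in this direction of 1.11% of 12653 genes. The 9 libraries of batch 1 mix both diets, so diet and batch are mixed in this difference. Over all genes 20 (0.158%) had an FDR under 0.05, and no clock gene was among them.

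Dbp and its neighbour share sequence, which bears on its count. Dbp lies on the plus strand of chromosome 7, and Sphk2, a sphingosine kinase gene, on the minus strand. Their exons share 539 bases, chr7:45709665-45710203 in the GENCODE annotation of GRCm38, and these hold the 3′ end of Dbp, where a 3′ method reads it. The sources used here do not say whether the counting used strand, so reads of both genes cannot be told apart. Sphk2 had 605, 117, 465 and 0 counts in the batch 1 controls, 408, 348, 570, 514 and 397 in the WD libraries, and 1081, 582, 855, 953 and 707 in the batch 2 controls. In all 14 libraries the Dbp count was at or below the Sphk2 count. Per Sphk2 count, Dbp had from 0.818 to 0.901 counts in batch 2 and from 0.382 to 0.582 in WD mice. The 3 controls of batch 1 with counts had 0.228, 0.991 and 0.826, so they spanned both of these ranges, and library 4 was at 0 for both genes. Sphk2 itself was lower in WD than in the batch 2 controls by 0.91 on the log2 scale (SE 0.21, FDR 0.0140 with edgeR). Nr1d1 overlaps Thra, a thyroid hormone receptor gene on the opposite strand, by 263 exon bases that do not hold its 3′ end. These are chr11:98768157-98768419, and the 3′ end of Nr1d1 lies at 98767932. Whether reads of Nr1d1 or Thra fell on the shared bases was not tested. Per1, Per2, Cry1 and Nr1d2 overlap no annotated gene.

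**Figure D3:**
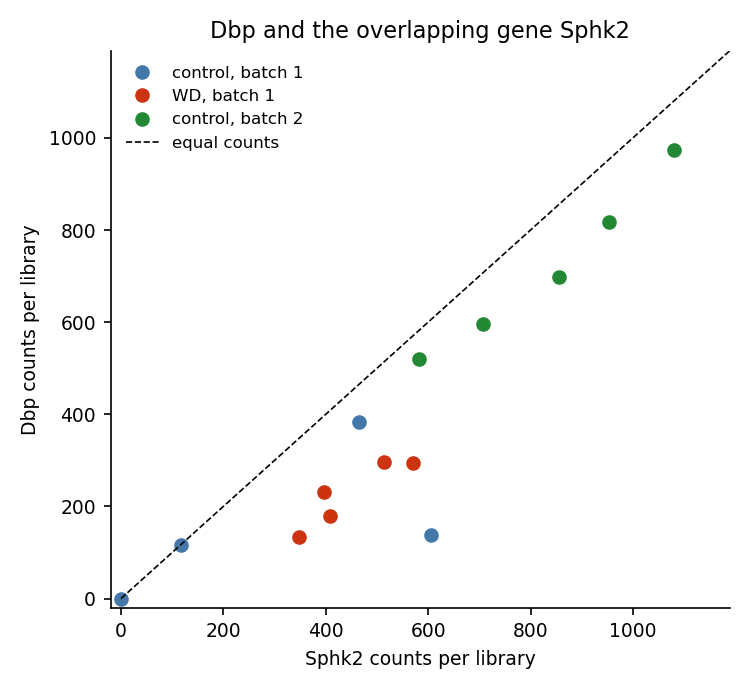
Dbp counts (vertical axis) against Sphk2 counts (horizontal axis) in each of the 14 libraries, with the line of equal counts. All points lie on or below the line, and the WD libraries, at 348 to 570 Sphk2 counts, lie farther below it than the batch 2 controls in proportion. The controls of batch 1 lie on both sides of these, with 0.228 to 0.991 Dbp counts per Sphk2 count in the 3 with counts.

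Ratios within a library do not depend on how libraries are scaled, and they were therefore taken for Dbp. Per Clock count, Dbp had from 0.785 to 2.67 counts in batch 2, from 0.389 to 0.459 in WD mice and from 0 to 0.594 in the controls of batch 1. On this ratio, added after the values were seen, the batch 2 controls again stood above all 9 batch 1 libraries, and the 5 WD libraries lay close together. Per Nr1d2 count Dbp had from 0.426 to 1.09 counts in batch 2, from 0.201 to 1.22 in WD mice and from 0 to 0.539 in the controls of batch 1. The groups overlapped only through WD library 4 (1.22, with 243 Nr1d2 counts) and library 3 of the batch 1 controls (0.539). All other batch 1 libraries lay between 0 and 0.282, below every batch 2 control. Per 1000 counts of Adipoq, the adipocyte hormone adiponectin, Dbp had from 2.97 to 6.10 counts in batch 2, from 2.33 to 6.63 in WD mice and from 0 to 16.9 in the controls of batch 1, so this ratio did not separate the groups.

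**Figure D4:**
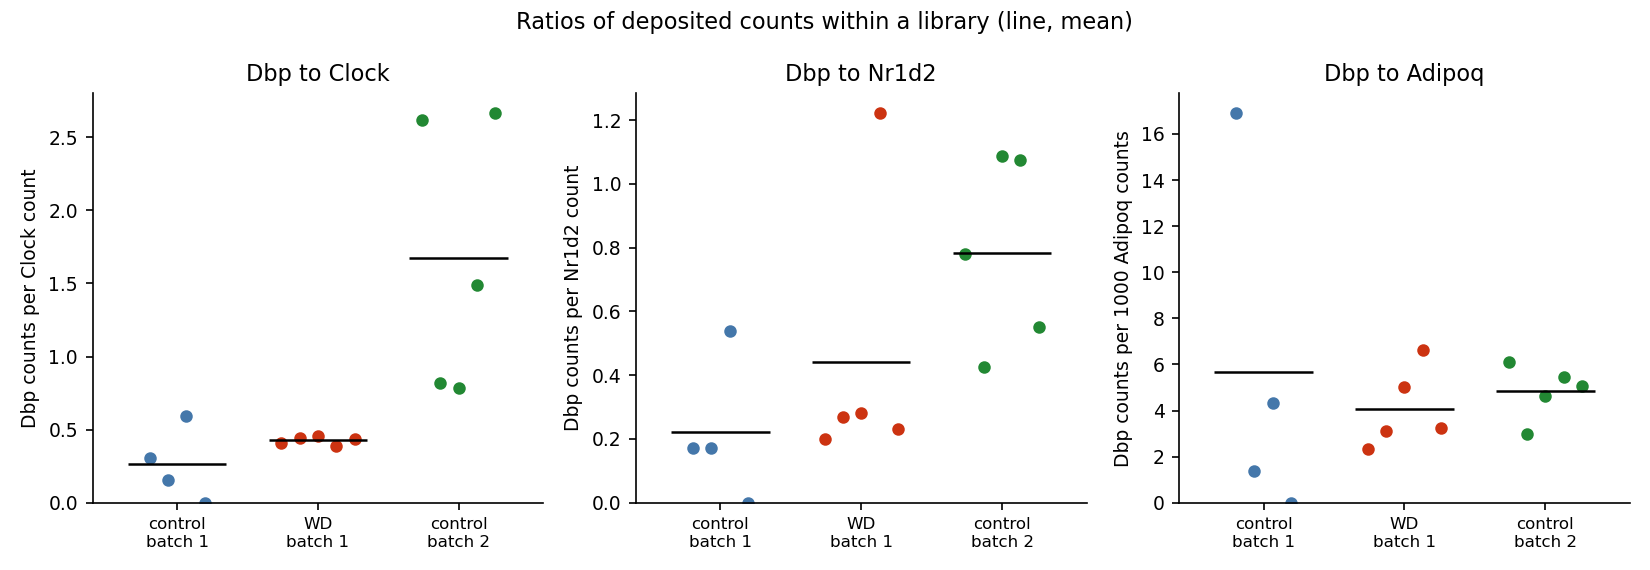
Dbp counts per Clock count, per Nr1d2 count and per 1000 Adipoq counts (vertical axes), with 1 point per library and the mean of each group as a line. The batch 2 controls lie apart from the batch 1 libraries when Dbp is divided by Clock, from 0.785 upward. When Dbp is divided by Nr1d2, only WD library 4 and library 3 of the batch 1 controls rise above the lowest batch 2 control (0.426). When Dbp is divided by Adipoq, the batch 2 controls lie among the batch 1 libraries.

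Cell type markers also differed between groups. The 6 adipocyte markers summed to 36687 to 45856 CPM in the batch 2 controls, 20708 to 34877 CPM in WD mice and 4429 to 37924 CPM in batch 1 controls, and none was at 0. In WD against batch 2 controls 3 of 6 passed the edgeR test as lower and 1 as higher, and Adipoq itself was lower by 1.40 on the log2 scale (SE 0.19, FDR 0.000306). Adipoq separated the batches as Dbp did. It ran from 11414 to 16913 CPM in the batch 2 controls and from 866 to 7382 CPM in the batch 1 libraries of both diets. The 6 macrophage markers summed to 125 to 385 CPM in the batch 2 controls, 1033 to 1588 CPM in WD mice and 98.0 to 1113 CPM in batch 1 controls. Library 4 alone held the 1113 CPM, inside the WD range, and libraries 1, 2 and 3 of the batch 1 controls held 98.0, 354 and 255 CPM. All 6 of 6 were higher in WD than in the batch 2 controls at an FDR under 0.05. Libraries 2 and 3 of the batch 1 controls had adipocyte sums of 37924 and 34938 CPM beside 9.84 and 32.0 CPM of Dbp. Their Adipoq levels, 7040 and 7382 CPM, lay below those of every batch 2 control. The part of these shifts in the Dbp difference was not tested beyond the ratio to Adipoq given above.

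The wider clock network was described with 17 further genes, of which 13 passed the filter. In the diet comparison within batch 1 and in the batch comparison within the control diet, 0 of 13 had an unadjusted p under 0.05 with edgeR. In WD against batch 2 controls 0 of 13 had an FDR under 0.05, and 3, all lower in WD, had an unadjusted p under 0.05, where 7.9% of all genes did in that direction. Those 3 were Tef and Hlf, the relatives of Dbp, and Usp2, a deubiquitinase gene whose RNA follows the clock. Tef had 927, 1604, 1526 and 121 counts in the batch 1 controls, 1406, 1176, 1259, 427 and 1471 in the WD libraries, and 2635, 3560, 1964, 1606 and 1788 in the batch 2 controls. Each batch 2 library but the one with 1606 counts lay above every batch 1 library in CPM, and the difference of WD from batch 2 was −1.05 (SE 0.33, FDR 0.072 with edgeR).

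Hlf had 100, 39, 209 and 0 counts in the batch 1 controls, 180, 128, 108, 56 and 275 in the WD libraries, and 536, 276, 287, 270 and 240 in the batch 2 controls. In CPM the 5 batch 2 controls lay above all 4 batch 1 controls, as 4.21% of genes did, with a difference of 1.72 (SE 1.08, FDR 0.832 with edgeR). Of the WD libraries 4 of 5 lay below all batch 2 controls, with a difference of WD from batch 2 of −1.09 (SE 0.41, FDR 0.155 with edgeR). Per 1000 Adipoq counts, Tef had a median of 20.6 in WD mice (9.54 to 27.6) and 15.2 in batch 2 (10.7 to 20.4), and Hlf of 2.33 (1.25 to 3.85) and 1.90 (1.58 to 3.36). On that scale the groups overlapped and the WD medians of both genes lay above those of batch 2. Usp2 had 205, 215, 523 and 168 counts in the batch 1 controls, 111, 239, 137, 4 and 111 in the WD libraries, and 578, 485, 344, 340 and 441 in the batch 2 controls. For Usp2, 4 of the 5 WD libraries had the lowest levels in CPM of all 14 libraries. WD lay below batch 2 by 1.81 on the log2 scale (SE 0.62, FDR 0.111 with edgeR), and within batch 1 4 of 5 WD libraries lay below all 4 controls, with a log2 fold change of −1.18 (SE 0.92, FDR 1.00 with edgeR). The exact permutation test on log2(CPM + 1) gave p = 0.0952 for Usp2 within batch 1, unadjusted.

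**Figure D5:**
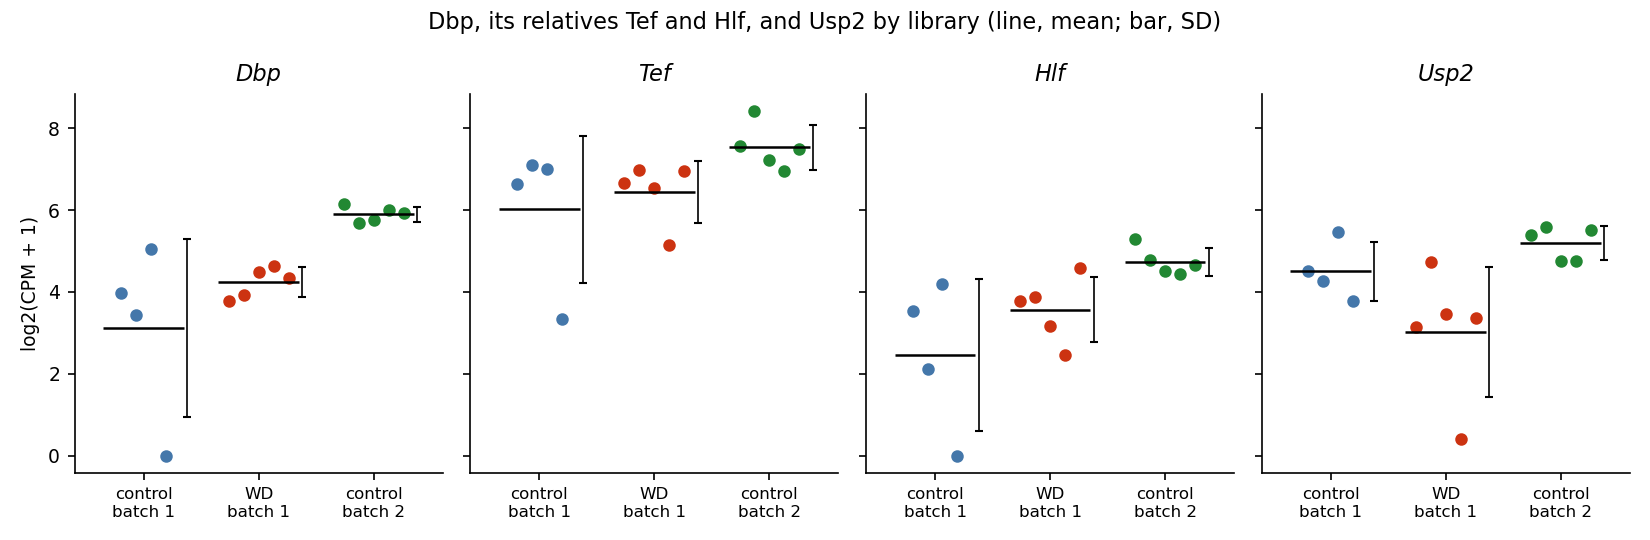
Log2(CPM + 1) of Dbp, Tef, Hlf and Usp2 (vertical axis) by group, with 1 point per library, the mean as a line and the SD as a bar. WD means lie above the batch 1 control means for Dbp (4.24 against 3.11), Tef and Hlf. These gaps are smaller than the SD of the batch 1 controls, whose library 4 is the lowest of that group for each of these genes. For Usp2 the WD mean lies below both control groups, where no difference had an FDR under 0.05.

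Genes that report on the state of the animal at collection were counted as well, since glucocorticoids peak with the active phase and immediate early genes rise with handling and dissection. Of 9 glucocorticoid-responsive genes tested, 0 had an FDR under 0.05 in the diet comparison within batch 1 or in the batch comparison within the control diet, and 1, lower, had an unadjusted p under 0.05 in each with edgeR. In WD against batch 2 controls 1 was higher and 1 lower at an FDR under 0.05. Of 9 immediate early genes tested, all 9 had log2 fold changes below 0 in batch 2 against batch 1 controls and 0 had an unadjusted p under 0.05 with edgeR. In the diet comparison within batch 1, 8 lay below 0, and 1, higher in WD, had an unadjusted p under 0.05 with edgeR. In WD against batch 2 controls 7 lay above 0, and 1, higher in WD, had an FDR under 0.05 (0.000946 with edgeR). The sum of the immediate early genes was 91.3 to 207 CPM in the batch 2 controls, 197 to 260 CPM in WD mice and 97.6 to 696 CPM in batch 1 controls. Library 2 alone held the 696 CPM, and libraries 1, 3 and 4 of the batch 1 controls held 97.6, 275 and 216 CPM. Library 2 also had the highest sum of the glucocorticoid-responsive genes of all libraries, 7916 CPM. The part of these genes in the Dbp difference was not tested.

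In a clock at a given hour Arntl and Dbp stand far apart in phase, so Arntl was compared with each other member across libraries after removing group means. With Arntl at 0 in 9 of 14 libraries the counts are too sparse for a relation to be read. Pearson's r ranged from −0.31 (Clock) to 0.34 (Dbp) over 14 libraries, and the permutation p adjusted over the 9 relations was 0.703 or above in each. For Dbp, Spearman's rho was 0.06 (permutation p = 0.849), and r was 0.27 without the 2 libraries farthest from the median of Arntl.

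The genes whose pattern was most like that of Dbp, as a description over the same 14 libraries after removing group means, were Cdk7 and Mrps9 (r = 0.97) and Scaf4, Brd8 and Fam168a (r = 0.96) of 7907 genes compared. All 5 had 0 or 1 counts in library 4 of the batch 1 controls, where Dbp was also at 0, and without libraries 1 and 4 of that group r lay between 0.71 and 0.81. The lowest were C3ar1 and Bcs1l (r = −0.91), Abcb4 and Larp7 (r = −0.90) and Psap (r = −0.89). For Psap, r was −0.08 without those libraries. For Arntl the highest were Mrpl9 (r = 0.79), Tpsb2, Egfr, Tmem19 and Sqrdl, and the lowest were Wnk1 (r = −0.93), Fam124a, Dpp7, Arf6 and Ube2d3, on counts of Arntl that were above 0 in 5 libraries.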

How the data were processed

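The authors sequenced QuantSeq libraries of eWAT as single-end reads, aligned them with Bowtie2, counted unique and multiple alignments with Bedtools and deposited these counts for 23282 genes. The processing notes name mm10. Multiple alignments and overlapping genes can place a read at more than 1 gene. The authors also deposited log2 values after TMM and CPM normalization in edgeR. These differed by at most 0.025 from log2(CPM + 1) recomputed here. Total counts ran from 10278970 to 13712254 per library, and intervals of depth cover counting error only, since molecular identifiers are not mentioned.

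Groups were taken from the labels. The 10 genes, the gene lists and the comparisons were chosen with earlier results of these data known. Counts were tested with edgeR 4.0.16 (quasi-likelihood test, TMM, filterByExpr) in R 4.3.3 over all genes with Benjamini-Hochberg adjustment and an FDR threshold of 0.05, and the SE of a log2 fold change was taken from its F statistic. Single genes were compared on log2(CPM + 1) with two-sided exact permutation tests in scipy 1.17.1, over all 126, 252 or 2002 splits. This was done for the 10 genes in each comparison without adjustment. The same test was run on the other listed genes, also without adjustment, and of these only the result for Usp2 within batch 1 is given. Relations with Arntl used 100000 permutations within groups. The rule for named genes was the 10 members, with the other clock genes named where an unadjusted p was under 0.05, and the 5 genes most and least like Dbp and Arntl with a mean of at least 10 CPM. Alternatives were other scalings and filters, DESeq2 1.42.0, limma 3.58.1, all libraries in 1 fit, the replicate number as a block, and libraries left out. The code was tested on simulated data. Of the deposited symbols, 22197 of 23238 were found in the GENCODE annotation of GRCm38.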

Additional observations from a re-analysis of the deposited data

Results flagged for a closer look

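Of 29 groups of libraries tested for a value far from the rest, over the 10 clock genes and 3 groups with some count, 4 were flagged. Chance flags about 1 in 20 such groups when values follow a normal distribution. That rate does not apply where all other libraries of a group are at 0, as for Npas2 and Arntl below. A single library with counts is then always flagged. The clock repressor gene Per2 in library 1 of the batch 1 controls stood at 1.04 on the log2(CPM + 1) scale, against 4.99 to 5.33 in the other 3 libraries of the group, with 10 counts. That library also held the epididymis markers. Cry1 in WD library 5 was at 0, against 3.45 to 3.83 in the other 4 WD libraries. Npas2 in library 1 of the batch 1 controls stood at 2.77 with 55 counts, where the other 3 libraries were at 0. Arntl in library 1 of the batch 2 controls stood at 1.05 with 15 counts, where the other 4 were at 0. The causes were not tested.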

How the results depend on the processing

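The clock gene result that met the FDR threshold, Dbp in WD against batch 2 controls, stayed under it in every alternative but the fit of all 14 libraries, where Dbp kept −1.69, no clock gene had an FDR under 0.05 (0 of 8), 1 had an unadjusted p under 0.05 and 140 genes passed. One library left out at a time gave 1 to 2 clock genes and 565 to 977 genes there. The cause of each change below was not tested. Low counts limited Arntl and Npas2 to a description.

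In the diet comparison within batch 1, where the main count of genes was 0, DESeq2 gave 114, the fit without replicates 1 and 4 of the batch 1 controls gave 108, all 14 libraries in 1 fit gave 1, and leaving out 1 library gave 0 to 48. No alternative called a clock gene. Directions turned for Per1 with limma-voom (0.59), for Per3 with limma-voom (1.41) and limma on deposited log2 values (0.13), and without replicates 1 and 4 for Nr1d1 (−0.10), Nr1d2 (0.036) and Dbp (−0.19). With 1 library left out, Per1 ran from −1.21 to 0.10, Nr1d1 from −0.057 to 0.81, Nr1d2 from −0.35 to 0.061, Dbp from −0.062 to 1.13, and Cry1 from 1.13 to 4.46.

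In the batch comparison within the control diet, where the main counts were also 0, DESeq2 gave 111 genes, the fit without replicates 1 and 4 gave 28, all 14 libraries in 1 fit gave 1 and all 9 batch 1 libraries, added later, gave 20. Leaving out 1 library gave 0 to 2. Clock genes with an unadjusted p under 0.05 numbered 2 with limma-voom and limma on deposited log2 values, 1 with no filter, DESeq2, all 14 libraries, all 9 batch 1 libraries and without replicates 1 and 4, and 0 to 1 with 1 library left out, and none had an FDR under 0.05. Nr1d1 turned to 0.062 with limma-voom and 0.17 with limma on deposited values, and Per1 to −0.063 without replicates 1 and 4. With 1 library left out, Per3 ran from −0.25 to 0.82, Nr1d1 from −0.41 to 0.47, Dbp from 1.65 to 2.86 and Cry1 from 1.54 to 4.89. The exact permutation test, with 2 clock genes under 0.05, gave 1 to 2 with 1 library left out and 0 without replicates 1 and 4. The Dbp to Adipoq ratio differed between batches by 0.65 in median log2. The ratio to Arntl, at 0 in most libraries, rests on the count of 1 added to each gene and is not read.

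In WD against all controls, where 67 genes passed, counts were 128 when every library had to reach 1 CPM, 225 with DESeq2, 223 with limma-voom, 210 with limma on deposited values, 619 without replicates 1 and 4, and 28 to 289 with 1 library left out. Clock genes with an FDR under 0.05 numbered 1 without replicates 1 and 4, and those with an unadjusted p under 0.05 numbered 2 there and 0 to 1 with 1 library left out. In the exact permutation test they numbered 3 and 0 to 1. Dbp turned to 0.19 with limma-voom. In WD against batch 2 controls, Clock, at −0.03, turned to 0.058 with limma-voom and 0.046 with limma on deposited values, and ran from −0.19 to 0.18 with 1 library left out.

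Replicate numbers were shared by groups of different animals. Same-numbered libraries had correlations of −0.040 to 0.078 in their deviations from group means, so the number was not taken as a pairing. With the replicate block, 0 genes passed in the diet comparison within batch 1 and in the batch comparison within the control diet, and 594 in WD against batch 2 controls, where Dbp was at −1.72 (FDR 0.00519 with edgeR). The block turned Per1 to 0.25 within batch 1, Nr1d1 to 0.28 within the control diet and Clock to 0.058 against batch 2.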
